A study of Mus musculus with 4 samples.

Results

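Active DNA demethylation in mammals was followed here through 10 gene symbols: the dioxygenase genes Tet1, Tet2 and Tet3, the glycosylase genes Tdg and Smug1, the endonuclease gene Apex1, the stress-response genes Gadd45a, Gadd45b and Gadd45g, and Gm9855, a pseudogene copy of Tdg. The members were chosen by symbol, and all 10 were found among the 36846 symbols of the deposited transcript table. RNA had been sequenced from Dnmt3l-KO mouse embryonic fibroblasts (2 libraries) and from wild-type (WT) fibroblasts (2 libraries). Both genotypes were fibroblast lines from embryos of day 13.5 to 14.5 out of crosses between Dnmt3l heterozygotes on C57BL/6, grown in serum-containing DMEM to passage 4 without further treatment named in the labels. The labels describe neither the Dnmt3l allele nor the embryo behind each library, so p-values measure only the spread between these libraries, which may be technical.

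TET proteins oxidise the methyl group of methylated cytosine in steps, to hydroxymethyl, formyl and carboxyl forms. TDG cuts the formyl and carboxyl bases out of DNA, APEX1 opens the backbone at the resulting abasic site, and polymerase and ligase fill the gap. SMUG1 removes uracil and hydroxymethyluracil, and GADD45 proteins have been described as adaptors that bring TET and TDG to DNA, besides their roles in stress signalling and growth arrest. DNMT3L, the product of the knocked-out gene, has no catalytic activity and assists the methyltransferases that set new methylation.

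The libraries held 51465395 and 40681328 estimated counts in Dnmt3l-KO and 47776612 and 41049869 in WT. Dnmt3l itself had 0 counts in both Dnmt3l-KO libraries and 6 and 1 counts in WT, too few to check the genotype labels. All 16 fibroblast markers were detected, with summed levels of 19964 to 25323 CPM (counts scaled to a common library size, with TMM factors) in Dnmt3l-KO and 18507 to 21592 CPM in WT. Fn1 was the highest marker in that sum, and some single markers differed further between the Dnmt3l-KO libraries. Lum had 0.421 and 9.38 CPM in Dnmt3l-KO and 1.19 and 2.54 CPM in WT, and Col3a1 had 190 and 895 CPM in Dnmt3l-KO and 471 and 368 CPM in WT. Pdgfra had 17.2 and 65.4 CPM in Dnmt3l-KO and 23.4 and 38.6 CPM in WT, and the endothelial marker Kdr 17.5 and 4.81 CPM in Dnmt3l-KO and 6.71 and 8.36 CPM in WT. The mean chi-square per gene between replicates was 91.6 over 14677 genes in Dnmt3l-KO and 31.0 over 14640 genes in WT. Genes with low counts were left out of it. Lum, Col3a1, Pdgfra and Kdr were picked after their values were seen. Every fibroblast marker except S100a4 and Vim was higher in Dnmt3l-KO replicate 2 than in Dnmt3l-KO replicate 1, Fn1 only just. S100a4 had 1212 and 914 CPM in Dnmt3l-KO and 1267 and 1488 CPM in WT. Vim had 4667 and 4356 CPM in Dnmt3l-KO and 4045 and 4326 CPM in WT. In the endothelial list Egfl7 and Tek went against Kdr. Egfl7 had 3.67 and 5.17 CPM in Dnmt3l-KO and 3.19 and 4.70 CPM in WT. The epithelial, endothelial and leukocyte marker lists summed to at most 55.3 CPM in Dnmt3l-KO and 54.8 CPM in WT. Esrp1 and Cldn5 were at 0 in all libraries. Neural and glial markers summed to 148 to 189 CPM in Dnmt3l-KO and 150 to 186 CPM in WT, and skeletal muscle markers to 134 to 261 CPM in Dnmt3l-KO and 178 to 280 CPM in WT, with Nes and Acta1 the highest of each list. The pluripotent list reached 54.4 to 62.7 CPM in Dnmt3l-KO and 46.7 to 48.6 CPM in WT, most of it from Klf4, with Zfp42, Dppa3 and Utf1 at 0. Any part of these marker differences in the results was not tested.

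Values of Tdg and Gm9855 turn on how alike the 2 sequences are. Tdg lies at chr10:82629814-82650799 on the plus strand of GRCm38 (the build also called mm10), and Gm9855, which RefSeq now names Tdg-ps2 and classes as a transcribed pseudogene, at chr10:42052558-42055453 on the minus strand. Over the 1194 bases of the Tdg coding sequence, Gm9855 differed at 9 bases, an identity of 99.25%. Counted from 1 at the first base of the start codon, and with the Tdg base first, these were A98C, A855G, G877A, G879C, T993C, T1056C, G1084A, A1090G and G1101A. Between them lay a run of 756 bases, bases 99 to 854, with no difference at all. Further copies were Tdg-ps on chromosome 15, with 14 differing bases and an identity of 98.8%, and Gm5597 on chromosome 7, with 8 differing bases and an identity of 99.33% over 1193 bases. T993C, T1056C and A1090G were present in all 3 copies. By BLAST of the longest GENCODE transcript, no other member had a copy of at least 90% identity over at least 200 bases. For Tdg the search also found AC122846.1, at 99.0% identity over 203 bases.

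Gm9855 was compared with Tdg over the coding sequence only, and whether reads could be told apart elsewhere was not examined. Shown here is the 90-base window, within a single Tdg exon, with the most differences between Tdg and Gm9855. It covers coding bases 1052 to 1141, in exon 10 of Tdg (chr10:82648578-82648667, plus strand), and its counterparts are at chr10:42054166-42054255 in Gm9855 (minus strand), chr15:82517535-82517624 in Tdg-ps (plus strand) and chr7:76244799-76244888 in Gm5597 (minus strand). Capitals in Tdg mark bases at which a copy differs, and capitals in a copy mark its differences from Tdg. Each sequence is written from 5′ to 3′ of the transcript and comes from GENCODE transcripts of GRCm38.
Tdg: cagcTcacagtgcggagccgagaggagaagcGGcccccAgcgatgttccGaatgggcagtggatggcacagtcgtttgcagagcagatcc
Gm9855: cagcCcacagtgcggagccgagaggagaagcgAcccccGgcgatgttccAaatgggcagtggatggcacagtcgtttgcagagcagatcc
Tdg-ps: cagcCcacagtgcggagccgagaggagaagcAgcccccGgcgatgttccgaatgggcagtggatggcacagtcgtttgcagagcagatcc
Gm5597: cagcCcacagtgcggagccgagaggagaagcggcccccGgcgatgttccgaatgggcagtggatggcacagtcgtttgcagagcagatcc
In this window Gm9855 differed from Tdg at 4 bases, Tdg-ps at 3 and Gm5597 at 2.

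For contrast, coding bases 440 to 529 lie in the middle of the identical run, in exon 5 of Tdg (chr10:82644170-82644259, plus strand) and at chr10:42054778-42054867 in Gm9855 (minus strand). The capital in Tdg and in Tdg-ps marks G490A, the base at which the copy on chromosome 15 (chr15:82516923-82517012, plus strand) differs.
Tdg: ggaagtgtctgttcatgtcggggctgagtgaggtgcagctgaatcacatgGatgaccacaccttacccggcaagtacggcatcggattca
Gm9855: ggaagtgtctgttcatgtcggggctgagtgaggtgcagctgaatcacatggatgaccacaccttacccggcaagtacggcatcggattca
Tdg-ps: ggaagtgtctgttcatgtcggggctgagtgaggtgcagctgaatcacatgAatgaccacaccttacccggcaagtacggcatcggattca
Over these 90 bases Tdg and Gm9855 had the same letters.

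**Figure D1:**
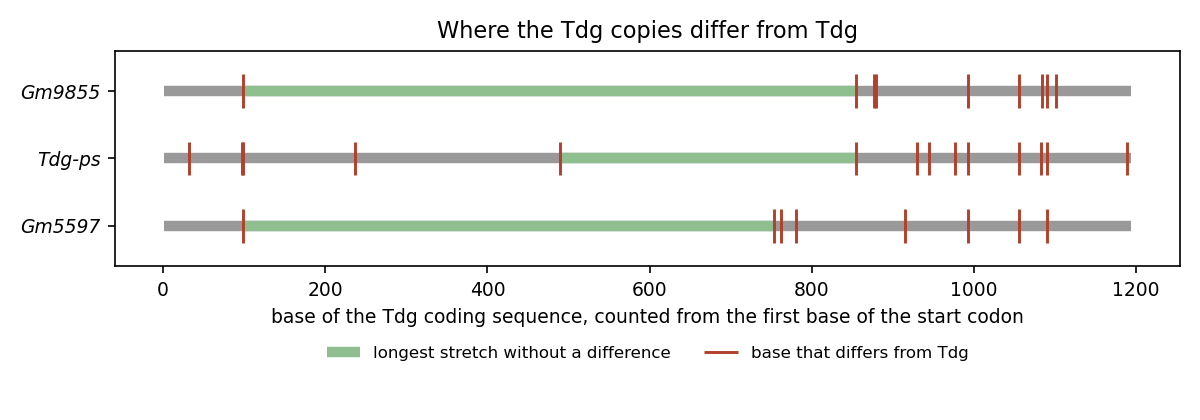
Positions along the 1194 bases of the Tdg coding sequence (x axis, bases) at which each of 3 copies differs from Tdg (red ticks), with the longest stretch without a difference in green. For Gm9855 that stretch covers bases 99 to 854, and 8 of its 9 differences lie after it.

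Across the 10 members, Tdg had lower and Gm9855 higher assigned counts in Dnmt3l-KO, and the other 8 did not pass the test. That is 1 member lower and 1 higher by edgeR's quasi-likelihood test with Benjamini-Hochberg adjustment at 0.05, against 0.0203% of the 14760 symbols tested (0.00678% lower and 0.0136% higher). Those shares stand for 3 symbols, 1 lower and 2 higher, and they include Tdg and Gm9855 themselves. They are therefore no separate background for these members. All 10 members passed the filter on low counts, Gm9855 through its Dnmt3l-KO libraries alone. The median log2 fold change, Dnmt3l-KO over WT, was 0.04 over the members and 0.01 over all symbols tested. In RNA from whole cultures, fewer cells expressing a gene and less RNA per cell cannot be told apart. For Tdg and Gm9855 the separate values also depend on how reads were divided between these near-identical copies, which was not tested.

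Tdg had 43 and 42 counts in the Dnmt3l-KO libraries (0.862 and 1.0 CPM), against 1482 and 1160 counts in the WT libraries (31.5 and 27.8 CPM). Both Dnmt3l-KO libraries lay far below both WT libraries. Its log2 fold change was -4.99 ± 0.16 (SE; edgeR, adjusted p = 0.0044). Without WT replicate 1, which leaves a lone WT library, it was -4.90 and missed the threshold (edgeR, adjusted p = 0.056).

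Gm9855 showed the opposite pattern, with 1602 and 1336 counts in Dnmt3l-KO (32.1 and 32.0 CPM) and 0 counts in both WT libraries. The Dnmt3l-KO libraries were close to each other and near the level of Tdg in WT. Against a floor of 3 counts per WT library, Gm9855 as counted was at least 472-fold higher in Dnmt3l-KO. Gm9855 could enter the test through its Dnmt3l-KO libraries alone, so the test (edgeR, adjusted p = 0.0055) adds no support. That bound does not cover how reads were divided between the copies. Floors and binomial intervals cover counting error only, since PCR copies are not independent molecules.

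Taking both copies as a single feature, Tdg plus Gm9855 had 33.0 and 33.0 CPM in Dnmt3l-KO, against 31.5 and 27.8 CPM in WT. Both Dnmt3l-KO libraries were above both WT libraries, by a margin smaller than the gap between the WT libraries. The log2 fold change of the sum was 0.15 ± 0.11 (SE; 95% interval -0.12 to 0.43; edgeR, adjusted p = 0.999), which bounds the ratio between 0.918 and 1.35. With the pair summed, edgeR called 1 of 14759 features (0.00678%) and no member. Per length, the sum came to 10.3 and 10.7 FPKM in Dnmt3l-KO and 8.52 and 8.17 FPKM in WT, and limma on log2(FPKM + 1) gave a log2 fold change of 0.30 that did not pass (adjusted p = 0.9998).

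The division of that sum between the copies was almost complete. Gm9855 made up 97.4% (95% Wilson interval 96.5 to 98.1) and 97.0% (95.9 to 97.7) of it in Dnmt3l-KO. In WT its share was 0 of 1482 and 0 of 1160 counts, with upper Wilson limits of 0.259% and 0.330%. Gm5806, the symbol under which the table lists Tdg-ps, had 4 and 0 counts in Dnmt3l-KO and 1 and 0 in WT, and adding it left the log2 fold change of the sum at 0.15. Gm5597 was not found under that name among the symbols, so its expression was not analysed here.

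**Figure D2:**
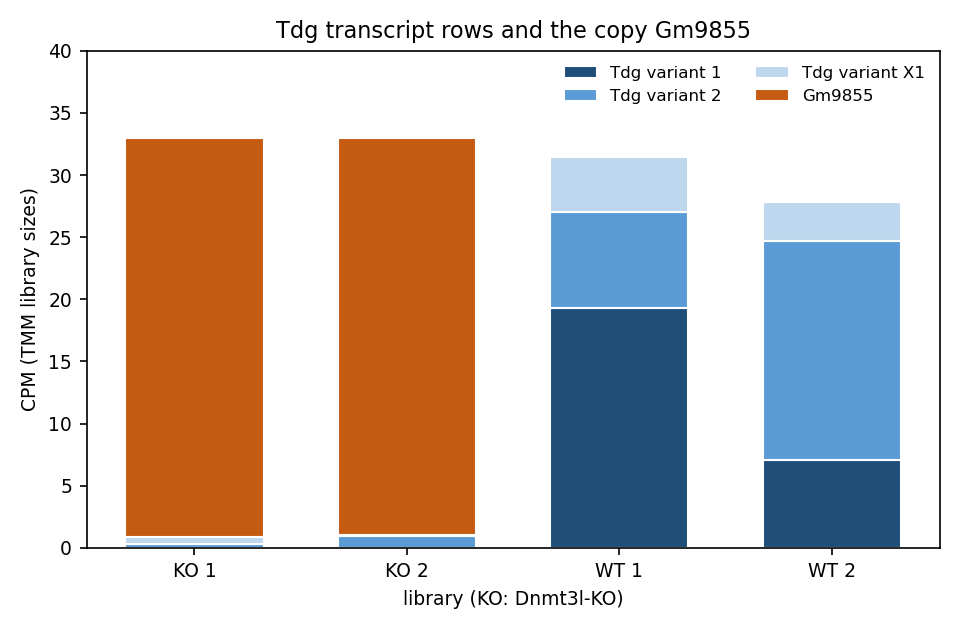
Counts in CPM (y axis) on the 3 Tdg transcript rows (blues) and on Gm9855 (orange) in each library (x axis), stacked. The full bars reach 33.0 and 33.0 CPM in Dnmt3l-KO and 31.5 and 27.8 CPM in WT, nearly all of it Gm9855 in Dnmt3l-KO and all of it Tdg in WT.

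The 3 Tdg transcript rows did not share the counts evenly. Variant 1 had 0 counts in both Dnmt3l-KO libraries, against 909 and 294 in WT, which were 61.3% and 25.3% of the Tdg counts of those libraries. Variant 2 had 16 and 39 counts in Dnmt3l-KO and 365 and 735 in WT. The predicted variant X1 had 27 and 3 counts in Dnmt3l-KO and 208 and 131 in WT. Each row was lower in both Dnmt3l-KO libraries than in both WT libraries, while the leading row differed between the replicates of each genotype. Variants 1 and 2 share 2928 exonic bases, 99.0% of the 2959 bases of variant 1 and 83.6% of the 3502 of variant 2, so that variant 1 has few bases of its own.

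Fitted row by row, 26 of the members' 40 transcript rows passed the filter and 0 passed the edgeR test, which called 0.00252% of 39633 transcripts. At an unadjusted p under 0.05 there were 4 rows, those of Gm9855 and Tdg, against 4.12% of all transcripts. That number adds no support, since all 4 rows depend on how reads were divided between the copies. The Gm9855 row, at 0 counts in WT, passed the filter through Dnmt3l-KO alone. Variant 1 of Tdg, at 0 counts in Dnmt3l-KO, passed it through WT alone. Gm9855 had an adjusted p of 0.153 in edgeR, and the 3 rows of Tdg had an adjusted p of 0.9999 each. In the authors' deposited table, in which a positive log2 fold change is higher in Dnmt3l-KO, 3 of the 18 member rows with an adjusted p were under 0.05, against 0.441% of its 28097 transcripts. There Gm9855 had a log2 fold change of 6.22 (SE 0.305, adjusted p = 3.16e-88) in the authors' deposited table. For Tdg the authors' deposited table gave -3.27 for variant 1 (adjusted p = 1.07e-16), -2.21 for variant 2 (adjusted p = 8.87e-07) and -1.14 for X1 (adjusted p = 0.126). The authors' deposited table does not hold the sum of the copies, and its values for these rows depend on the same division of reads.

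The sources used here do not say how reads were divided between Tdg and its copies by the authors, and the separate values of both symbols depend on it. RefSeq and GENCODE also differ on the record behind the Gm9855 row: RefSeq places it at Gm9855 on chromosome 10, while GENCODE's cross-reference ties it to Tdg-ps on chromosome 15. Near its end Tdg overlaps Glt8d2, a gene on the opposite strand, which had 286 and 201 counts in Dnmt3l-KO and 216 and 224 in WT. Whether counting used strand is not stated in the labels, so reads from the overlap could have gone to either gene. Symbols with 0 counts in both libraries of a genotype and at least 50 in both of the other numbered 3, all of them at 0 in WT. Besides Gm9855 these were LOC102641579 (119 and 113 counts in Dnmt3l-KO) and LOC102638183 (75 and 83 counts in Dnmt3l-KO). Both are annotated as predicted records that resemble another gene. LOC102641579 is named N-acetylglucosamine-1-phosphotransferase subunit gamma-like, and LOC102638183 small nuclear ribonucleoprotein F-like.

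None of the TET genes passed the test between the genotypes. Tet1 (chr10:62804570-62887469) had 3.33 and 5.72 CPM in Dnmt3l-KO, against 4.14 and 3.12 CPM in WT. Its genotypes overlapped, with Dnmt3l-KO replicate 2 the highest library. The log2 fold change was 0.31 ± 0.34 (SE; 95% interval -0.55 to 1.17; edgeR, adjusted p = 0.999) and -0.13 without that library. Tet2 (chr3:133463677-133545136) had 11.1 and 19.3 CPM in Dnmt3l-KO, against 15.3 and 14.3 CPM in WT, so that the Dnmt3l-KO libraries lay on either side of WT. Its log2 fold change was 0.03 ± 0.28 (SE; 95% interval -0.68 to 0.75; edgeR, adjusted p = 0.999), -0.42 and 0.38 when Dnmt3l-KO replicate 2 or 1 was left out. Leaving out WT replicate 2 gave -0.013.

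Tet3 (chr6:83362373-83457208), the most abundant TET gene here, had 33.9 and 40.9 CPM in Dnmt3l-KO, against 33.8 and 30.1 CPM in WT. Both Dnmt3l-KO libraries were above both WT libraries, replicate 1 of Dnmt3l-KO only just. The log2 fold change was 0.23 ± 0.13 (SE; 95% interval -0.12 to 0.57; edgeR, adjusted p = 0.999), between 0.085 and 0.35 with each library left out in turn. Of the summed TET level per length, Tet3 made up 67.7% and 59.0% in Dnmt3l-KO and 60.7% and 59.7% in WT. Tet2 made up 27.1% and 34.2% in Dnmt3l-KO and 33.6% and 35.5% in WT. Tet1 held the remaining 5.13% and 6.80% in Dnmt3l-KO and 5.72% and 4.84% in WT. The order Tet3, Tet2, Tet1 was the same in all 4 libraries.

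The division of TET counts among transcript rows differed between replicates of a genotype. Tet1 counts were spread over 13 rows, and the row with the largest share was variant 1 in Dnmt3l-KO replicate 1 (27.7%), X2 in Dnmt3l-KO replicate 2 (28.5%) and X3 in both WT libraries (16.9% and 56.2%). Tet1 had 166 and 239 counts in all in Dnmt3l-KO and 195 and 130 in WT, which limits the precision of these shares. The curated row of Tet2 held 91.0% and 73.2% of its counts in Dnmt3l-KO and 90.2% and 74.4% in WT, so replicates 1 were alike and replicates 2 were alike. For Tet3 the curated row held 62.9% and 67.3% in Dnmt3l-KO and 67.6% and 42.5% in WT. WT replicate 2 stood apart there.

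**Figure D3:**
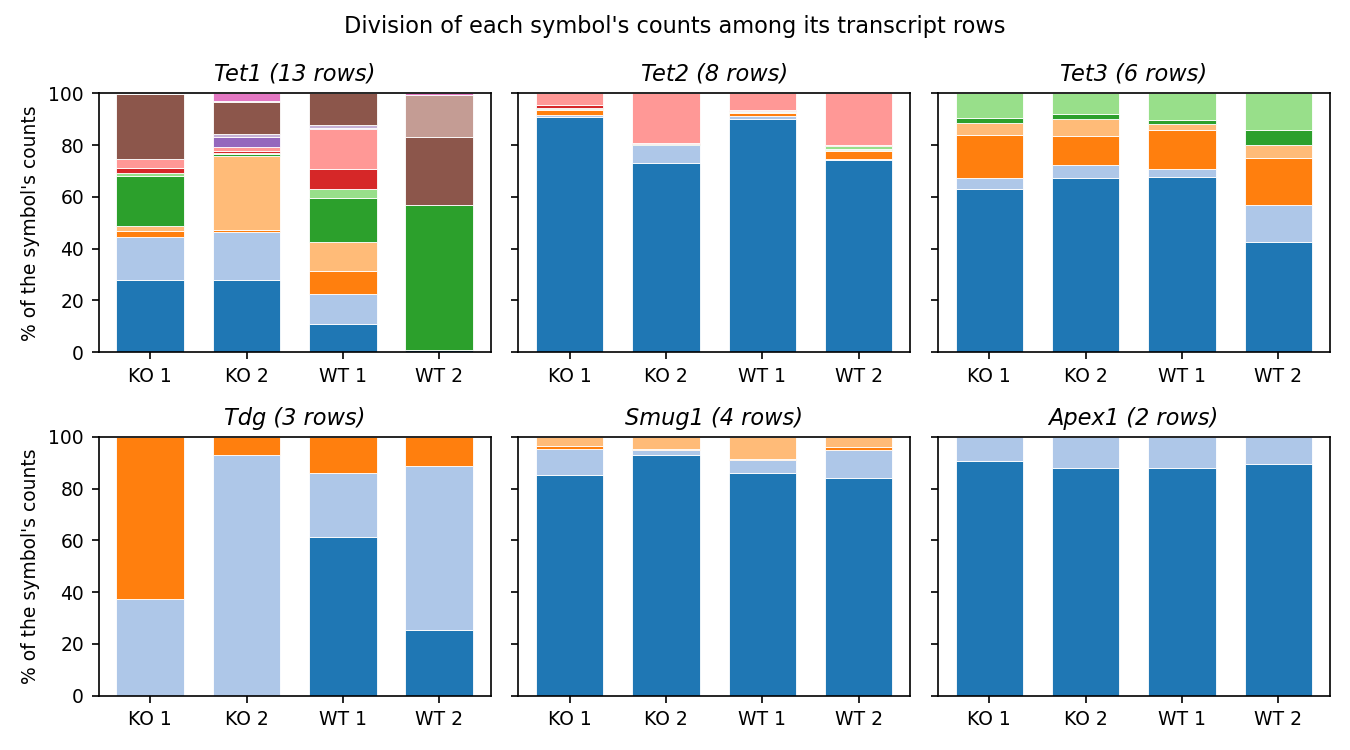
Share of each symbol's counts (y axis, %) on each of its transcript rows (colours within a panel) in each library (x axis) for Tet1, Tet2, Tet3, Tdg, Smug1 and Apex1. Smug1 and Apex1 keep a leading row of over 80% in every library, while the leading rows of Tet1 and Tdg change between libraries.

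Downstream of the TET enzymes, the glycosylase and endonuclease genes other than Tdg did not pass either. Smug1 (chr15:103153290-103168939) had 11.1 and 12.0 CPM in Dnmt3l-KO, against 12.4 and 11.8 CPM in WT. The 4 libraries overlapped, and the log2 fold change was -0.07 ± 0.12 (SE; 95% interval -0.39 to 0.24; edgeR, adjusted p = 0.999). A single curated row held 85.3% and 93.2% of its counts in Dnmt3l-KO and 86.0% and 84.0% in WT.

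Apex1 (chr14:50924949-50927188) had 68.0 and 59.9 CPM in Dnmt3l-KO, against 68.9 and 68.8 CPM in WT. Dnmt3l-KO replicate 1 was just below the WT libraries and replicate 2 further below. This was a log2 fold change of -0.11 ± 0.10 (SE; 95% interval -0.37 to 0.15; edgeR, adjusted p = 0.999). Its curated row held 90.9% and 88.2% of the counts in Dnmt3l-KO and 88.2% and 89.6% in WT, the steadiest division among the members with several rows.

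Among the GADD45 genes, Gadd45b (chr10:80930091-80932204) had 30.3 and 28.6 CPM in Dnmt3l-KO, against 36.8 and 34.4 CPM in WT. Both Dnmt3l-KO libraries were below both WT libraries. In edgeR the log2 fold change was -0.27 ± 0.10 (SE; 95% interval -0.53 to -0.01; edgeR, unadjusted p = 0.042, adjusted p = 0.999), and it stayed between -0.32 and -0.22 with each library left out in turn. Leaving aside Tdg and Gm9855, whose values depend on the division of reads, 1 of 8 members was at an unadjusted p under 0.05 in edgeR. Gm9855 also entered the test through its Dnmt3l-KO libraries alone. Together with Tdg and Gm9855, Gadd45b made 3 members at that level, which 4.15% of all symbols reached. These counts moved with the libraries: leaving out Dnmt3l-KO replicate 1 gave 5 members and 1817 symbols at that level, and leaving out Dnmt3l-KO replicate 2 gave 3 and 2042. Leaving out WT replicate 1 or 2 gave 2 members each time, with 198 and 225 symbols. With replicate number as a block 2 members were at that level. DESeq2's Wald test, which called 0.166% of 18701 symbols, called Tdg and Gm9855 and gave Gadd45b an unadjusted p of 0.094.

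Gadd45a (chr6:67035096-67037407) had 4.89 and 8.75 CPM in Dnmt3l-KO, against 6.79 and 4.53 CPM in WT. The genotypes overlapped widely, with a log2 fold change of 0.26 ± 0.36 (SE; 95% interval -0.67 to 1.20; edgeR, adjusted p = 0.999) that was -0.22 without Dnmt3l-KO replicate 2 and 0.62 without Dnmt3l-KO replicate 1. For Tet1, Tet2, Tet3, Gadd45a and Gadd45g alike, Dnmt3l-KO replicate 2 was the highest of the 4 libraries. Of the Dnmt3l-KO libraries it had the higher value of every fibroblast marker except S100a4 and Vim. The part of these marker differences in the values of Tet1, Tet2, Tet3, Gadd45a and Gadd45g was not tested. Gadd45g (chr13:51846675-51848475) was the steadiest of the family, with 48.3 and 51.2 CPM in Dnmt3l-KO and 47.5 and 49.1 CPM in WT. Its log2 fold change was 0.04 ± 0.09 (SE; 95% interval -0.20 to 0.28; edgeR, adjusted p = 0.999) and -0.0021 without Dnmt3l-KO replicate 2. Per length, Gadd45g made up 62.1% and 61.9% of the family in Dnmt3l-KO and 56.6% and 60.2% in WT, and Gadd45b 32.3% and 28.7% in Dnmt3l-KO and 36.3% and 34.9% in WT.

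**Figure D4:**
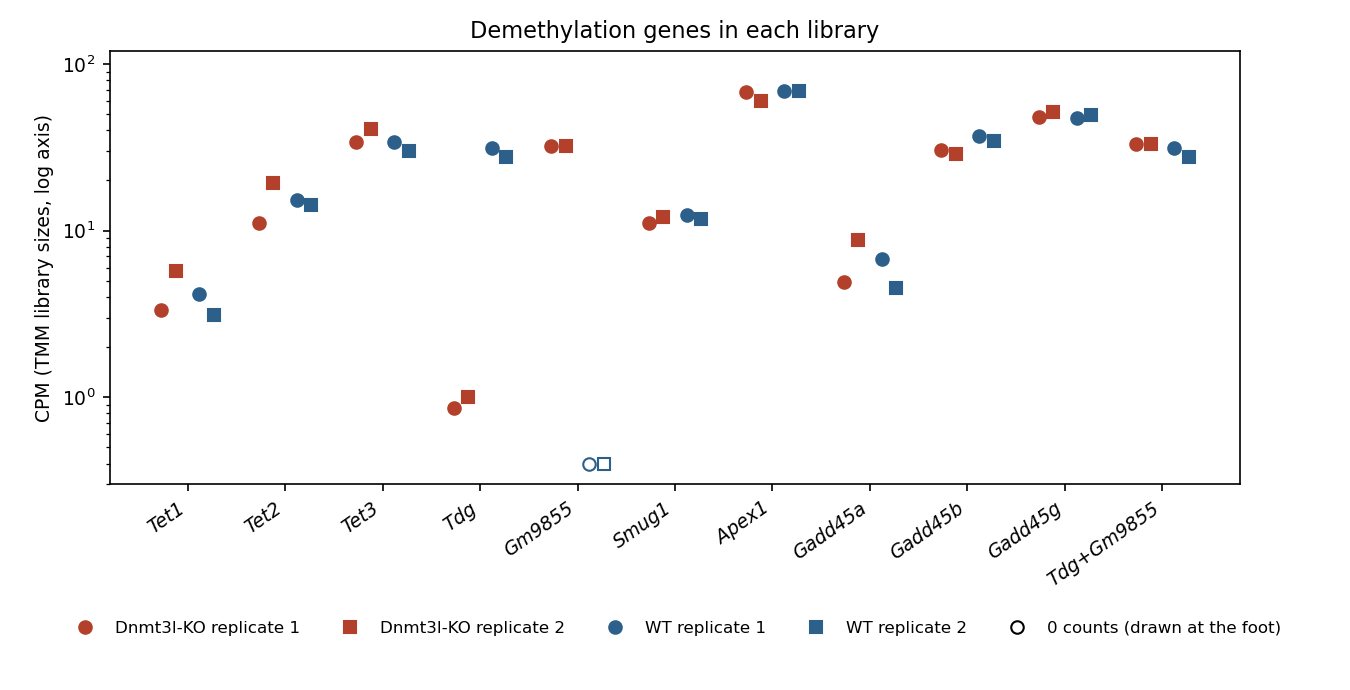
Levels in CPM (y axis, log scale) of the 10 members and of Tdg plus Gm9855 in each library, Dnmt3l-KO in red and WT in blue, with open symbols for 0 counts. Tdg at 0.862 and 1.0 CPM in Dnmt3l-KO and Gm9855 at 0 in WT stand apart, and their sum lies beside the WT level of Tdg.

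In 5 of the 10 members the libraries of the genotypes did not overlap, 2 above WT (Tet3 and Gm9855) and 3 below (Tdg, Apex1 and Gadd45b). Over all symbols tested this held for 32.8%, 16.2% above and 16.5% below. Leaving Tdg and Gm9855 aside, it held for 3 of 8 members, near the share of all symbols. Of the members, 4 lie on chromosome 10, which also carries Dnmt3l (chr10:78042287-78063622): Gadd45b at a distance of 2.87 Mb, Tdg at 4.57 Mb, Tet1 at 15.2 Mb and Gm9855 at 36.0 Mb.

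Levels between members can be compared per length, in FPKM. In Dnmt3l-KO, Apex1 (45.4 FPKM on average) and Gadd45g (42.6) overlapped at the top, followed by Gadd45b (20.9), Gm9855 (10.2) and Gadd45a (5.19), each apart from the next. Below them Tet3 (3.09 FPKM in Dnmt3l-KO) overlapped with Smug1 (3.01), Tet2 had 1.54 FPKM, and Tet1 (0.301) overlapped with Tdg (0.265). In WT the order was Apex1 (47.5 FPKM), Gadd45g (40.2), Gadd45b (24.5), Tdg (8.34), Gadd45a (4.12), Smug1 (3.09), Tet3 (2.53), Tet2 (1.45) and Tet1 (0.222), with libraries of neighbours apart at each step. Thus Gm9855 as counted held in Dnmt3l-KO the fourth place that Tdg held in WT, and Tdg as counted in Dnmt3l-KO was at the level of Tet1. Both places depend on how reads were divided between the copies, which was not tested.

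The other genes of the pathway were described through 6 lists with 78 symbols, of which 76 were found and 72 tested. Oga and Idax were not found as symbols and are other names of Mgea5 and Cxxc4, which were listed too. Of the 72, 0 passed in edgeR or in DESeq2, and 0 were at an unadjusted p under 0.05 in edgeR, against 4.15% of all symbols. That 0 depended on the setting, with 4 on library totals alone, 2 with no filter, 1 with DESeq2 and 3 with limma at either pseudocount. It was also 0 without either WT library, but 8 and 9 without Dnmt3l-KO replicate 1 or 2, where the count over all symbols grew to 1817 and 2042. Their median log2 fold change was -0.0049, with 35 positive and 37 negative values, beside 0.01 for all symbols tested.

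Of 9 further glycosylases, 2 had positive and 7 negative log2 fold changes, at a median of -0.07. Mbd4, which like TDG acts on mismatched thymine, had 3.19 and 1.94 CPM in Dnmt3l-KO and 3.21 and 3.55 CPM in WT, a log2 fold change of -0.39. Nthl1, for oxidised pyrimidines, had a log2 fold change of 0.18, Neil1, also for oxidised bases, -0.17, and Mpg, for alkylated purines, -0.08 (edgeR, adjusted p = 0.999 for all 4).

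Among 21 genes of the later repair steps, 9 values were positive and 12 negative, at a median of -0.01. Polb, the gap-filling polymerase, had 17.2 and 15.6 CPM in Dnmt3l-KO and 21.1 and 19.1 CPM in WT, a log2 fold change of -0.30 with the genotypes apart (edgeR, unadjusted p = 0.052). Pcna, the sliding clamp, had 79.99 and 72.3 CPM in Dnmt3l-KO and 86.9 and 96.5 CPM in WT, a log2 fold change of -0.27 (edgeR, unadjusted p = 0.053). Pole4, a polymerase epsilon subunit, was at -0.24 and Tdp1, which removes blocked ends, at 0.32. None of these 4 log2 fold changes passed (edgeR, adjusted p = 0.999 each).

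The 25 tested genes for TET partners, cofactor supply and readers of hydroxymethylcytosine had a median log2 fold change of 0.01, with 13 positive and 12 negative values. Fth1, the ferritin heavy chain that stores the iron TET enzymes need, had 387 and 287 CPM in Dnmt3l-KO and 218 and 266 CPM in WT, a log2 fold change of 0.48 (edgeR, unadjusted p = 0.053). Hcfc1, a partner of the OGT enzyme that binds TET proteins, had a log2 fold change of 0.23, Ogdh, which consumes the cosubstrate alpha-ketoglutarate, 0.23, and Slc23a2, an ascorbate transporter, 0.25. All 4 missed the threshold (edgeR, adjusted p = 0.999).

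GADD45 partners and effectors had 8 positive and 3 negative values among 11, at a median log2 fold change of 0.07. Cdk1, the mitotic kinase, was at -0.21, its cyclin Ccnb1 at -0.34, Gadd45gip1, a GADD45-binding mitochondrial protein gene, at 0.22 and Ing1, a chromatin reader, at 0.20. Of 5 AID/APOBEC cytidine deaminase genes, 2 were tested, Apobec3 at -0.31 and Apobec1 at -0.03. The methyltransferases Dnmt1, Dnmt3a and Dnmt3b had log2 fold changes of 0.05, 0.07 and -0.07, and their partner Uhrf1 one of 0.02. None of these 10 genes passed (edgeR, adjusted p = 0.999 each).

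**Figure D5:**
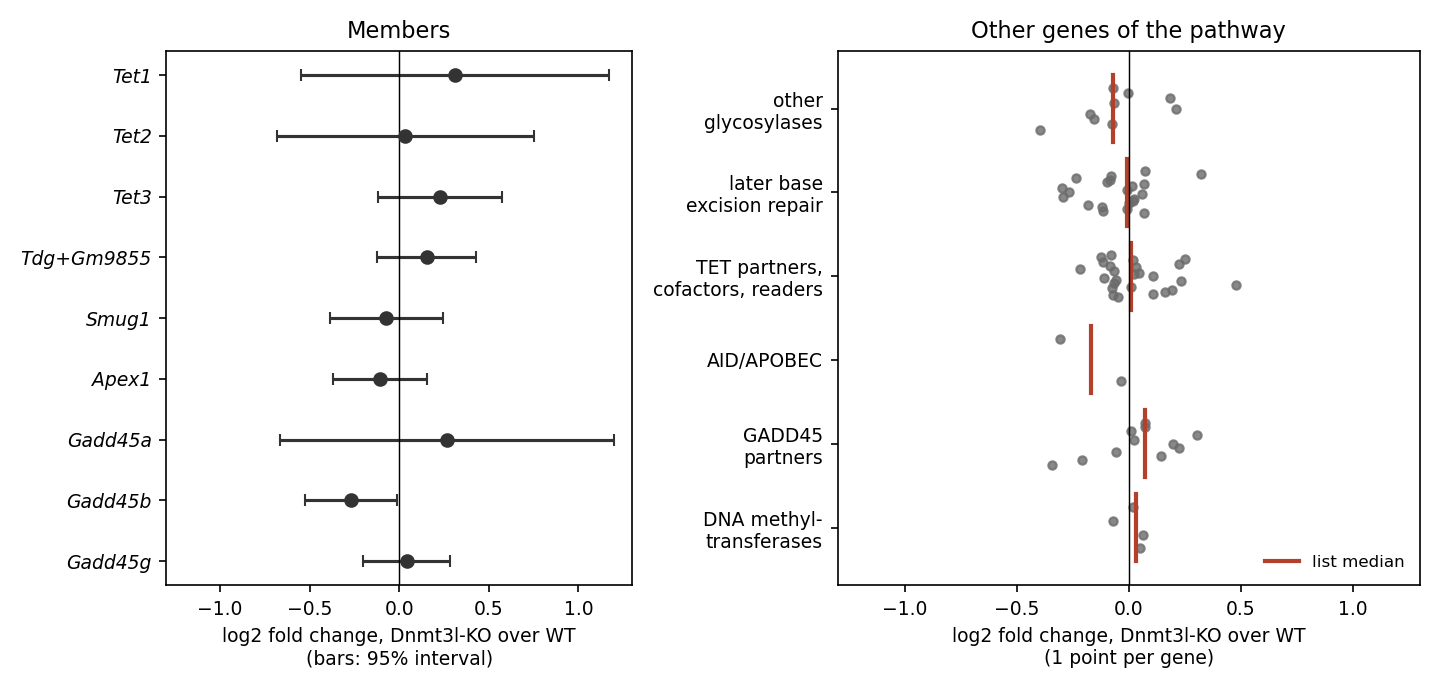
Log2 fold change, Dnmt3l-KO over WT (x axes), of the members with Tdg and Gm9855 summed (left, bars are 95% intervals) and of 72 other pathway genes by list (right, red lines are list medians). The interval of Gadd45b ends at -0.01, the other 8 intervals cover 0, and the list medians lie between -0.17 and 0.07.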

How the data were processed

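RNA depleted of ribosomal RNA was sequenced from 2 Dnmt3l-KO and 2 WT libraries. The submitters' processing notes name eXpress 1.4.1, DESeq2 1.8.0, Cufflinks 2.2.1 and TopHat2 2.0.12 with build mm10, without their roles. Per the file headers, the deposited table gives each RefSeq transcript an estimated count and an FPKM value per library. It also gives the authors' own comparison, per the file headers: a mean signal, a log2 fold change with its SE, a test score and a p-value, raw and adjusted. The deposited counts were whole numbers and were treated here as estimated counts.

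Counts of 116415 transcripts were summed to 36846 symbols. The 14760 passing edgeR's expression filter were tested, Dnmt3l-KO over WT, with edgeR 4.0.16 (R 4.3.3; quasi-likelihood, robust, TMM), adjusted by Benjamini-Hochberg over all of them at 0.05, without covariates. The SE was derived from the F statistic. A floor of 3 counts was used for groups at 0. Alternatives were DESeq2 1.42.0, limma 3.58.1 on log2(FPKM + 1) and log2(FPKM + 0.1), other size factors and filters, transcripts as features, summed copies, a replicate block and leaving out each library. Copies were searched for with BLAST 2.17.0 on the plus strand of GENCODE M21 transcripts. Differing bases were counted without gaps along the Tdg coding sequence in the same transcripts. Gene positions come from RefSeq's GRCm38.p6 gene table.

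Members, lists and tests were chosen with earlier results of these data known. Named genes were the members, Dnmt3l, up to 4 genes per list with the smallest p, the methyltransferases, and symbols sharing the 0 pattern of Gm9855.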

Additional observations from a re-analysis of the deposited data

How the results depend on the processing

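The count of symbols called, 3, became 31 with DESeq2, 6 and 9 with limma on log2(FPKM + 1) and log2(FPKM + 0.1), 8 with no filter on low counts, 1 with Tdg and Gm9855 summed and 1 with Gm5806 added to that sum, an alternative chosen after seeing the data. With each library left out in turn it ranged from 2 to 6 (2 without WT replicate 1, 6 and 5 without Dnmt3l-KO replicates 1 and 2). Members called, 2, became 0 with the copies summed and 0 with transcript rows as features, and ranged from 1 to 2 with a library left out, 1 being the value without WT replicate 1. Member transcript rows called, 0, became 1 with no filter. Pathway genes called stayed at 0 in all 12 alternatives run, with 0 to 9 at an unadjusted p under 0.05. Tdg passed in 11 of 12 alternatives and Gm9855 in 12 of 12, though Gm9855 entered these tests through its Dnmt3l-KO libraries alone. Tdg was at a log2 fold change of -2.88 on log2(FPKM + 1) values, where the pseudocount shrinks low levels. The log2 fold change of Tdg plus Gm9855 stayed positive and did not pass, at 0.066 to 0.24 with a library left out. Signs changed in genes that were never called: with a library left out, log2 fold changes ran from -0.13 to 0.65 for Tet1, -0.42 to 0.38 for Tet2, -0.22 to 0.62 for Gadd45a and -0.0021 to 0.080 for Gadd45g, each lowest without Dnmt3l-KO replicate 2 and highest without Dnmt3l-KO replicate 1, and Tet2 was at -0.013 without WT replicate 2. The replicate numbers are shared between genotypes but the labels tie them to no embryo or day (correlation of the deviations 0.0999 over 14760 genes). With replicate number as a block, 4 symbols and 2 members were called, the sum of the copies was at 0.16 and Tet2 at -0.016. The cause of these changes was not tested. With 2 libraries per genotype, the intervals of Tet2, with ratios of 0.623 to 1.68, and Gadd45a, with 0.629 to 2.29, show how little these libraries can exclude.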
